A study of Mus musculus with 16 samples.

Results

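The 9 JAK, STAT and SOCS genes described here are the kinases Jak1 and Jak2, the transcription factors Stat2, Stat3, Stat5a, Stat5b and Stat6, and the inhibitors Socs1 and Socs3. They were taken by symbol from the 24421 genes counted in each library. All 9 were present in the files and passed the filter on low counts in each comparison. mRNA was read at its 3′ end (QuantSeq) in myeloid-derived suppressor cells (MDSCs) sorted out of splenocytes from C57BL/6 mice, 4 of them WT and 4 Nlrp3-/-. Every mouse, in both genotypes, bore a tumor of B16.F10, a mouse melanoma cell line. In the paper these tumors grew less in Nlrp3-/- than in WT mice, so that tumor growth and genotype cannot be told apart. Each spleen gave M-MDSCs (CD11b high Ly6C+ Ly6G-) and G-MDSCs (CD11b high Ly6C- Ly6G+), so that the 16 libraries form 4 groups of 4, and M-MDSC and G-MDSC libraries of a genotype with the same replicate number come from the same mouse, since the sample descriptions give both the same spleen. In the Nlrp3-/- line, an EGFP cassette with an SV40 polyadenylation signal interrupts exon 2 in the germline, so the whole host lacks Nlrp3 and not the MDSCs alone. All samples are labelled C57BL/6, but per the methods WT mice were bought as C57BL/6J and the Nlrp3-/- line came from another laboratory, so that source of the mice and genotype cannot be told apart. The labels give neither age nor day of sorting for the sequenced mice, and there was no tumor-free group. By the methods, mice were matched for sex and age unless indicated otherwise.

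JAK-STAT signaling carries a cytokine signal from the cell surface to the nucleus. JAKs are kinases bound to the inner part of cytokine receptors. When a cytokine joins the receptor chains, the JAKs phosphorylate them and the STATs that dock there, and the STATs move to the nucleus and switch on genes. SOCS genes are among these targets, and their proteins dampen the receptors and JAKs that induced them. STAT3, downstream of IL-6 and G-CSF, and STAT5, downstream of GM-CSF, are known for their part in the expansion of MDSCs in tumor-bearing hosts. STAT2 works in the response to type I interferon, and STAT6 in that to IL-4 and IL-13. The activity of STATs is set by phosphorylation, which mRNA levels do not measure. In mm10 the genes outside chromosome 11 are Jak1 (chr4:101152367-101265282, minus strand), Jak2 (chr19:29251828-29313080, plus), Stat2 (chr10:128270559-128292849, plus), Stat6 (chr10:127642986-127660957, plus) and Socs1 (chr16:10782240-10785536, minus). Socs3 lies at chr11:117966079-117970047 (minus), and the 3 remaining genes form a cluster on the same chromosome, given with their values. Jak1 overlaps Raver2 and Stat6 overlaps Nab2 on the opposite strand, which the counting by strand keeps apart.

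Libraries held 2295967 to 6079866 counts, and 3 counts, taken as the detection floor, were worth 0.349 to 1.17 CPM. CPM is the count scaled to the size of its library, with libraries adjusted to each other by TMM. The floors cover counting error alone. The intervals and SEs of the log2 fold changes come from the edgeR quasi-likelihood fits, which also take in the spread between libraries. Nlrp3, the targeted gene, had at least 219 counts in every WT library and at most 59 in every Nlrp3-/- library, as the labels say. Monocyte markers summed to 7145 to 10100 CPM in M-MDSCs and 1407 to 1942 in G-MDSCs, and 11 of 12 neutrophil markers to 116948 to 177451 CPM in G-MDSCs. The remaining neutrophil marker, Ly6g, was not analysed here. In M-MDSCs the neutrophil markers summed to 1494 to 2596 CPM in 7 libraries and to 8985 in WT replicate 2, which stands apart. Without it, Socs1 by genotype in M-MDSCs went from a log2 fold change of -0.25 to 0.19, with no call in either case, the number of genes called by genotype in M-MDSCs went from 1060 to 514, and of the calls on the 9 genes that of Stat2 between WT subsets changed. Dendritic cell and macrophage markers were higher in the Nlrp3-/- libraries of both subsets, with no overlap (1245 to 1714 against 1888 to 2948 CPM in M-MDSCs, 1071 to 1697 against 2110 to 3295 in G-MDSCs), with Xcr1 at 0 in Nlrp3-/- G-MDSCs. T and NK cell markers were 118 to 164 against 174 to 306 CPM in M-MDSCs and 143 to 214 against 212 to 297 in G-MDSCs. Eosinophil and basophil markers were 6.42 to 33.6 against 28.1 to 72.8 CPM in M-MDSCs and, with no overlap, 31.1 to 57.6 against 59.8 to 71.9 in G-MDSCs. The 6 of 7 B cell markers in the files summed to 78.9 to 152 CPM in M-MDSCs and 210 to 315 in G-MDSCs. The proliferation genes were lower in the Nlrp3-/- libraries (188 to 636 against 78.9 to 161 CPM in M-MDSCs, with no overlap, and 157 to 529 against 76.5 to 231 in G-MDSCs). The part of these markers in the values below was not tested.

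The difference between the subsets was much larger than that between the genotypes for most of these genes. It was not for Stat5a (log2 fold changes of -0.40 and -0.27 between subsets, 0.33 and 0.46 between genotypes). For Stat2 the difference between WT subsets (-0.50) was near that between genotypes in M-MDSCs (0.39). In WT mice 7 of the 9 genes were higher in G-MDSCs and none lower. A gene is called here, and below, when the edgeR quasi-likelihood test gives it an FDR (Benjamini-Hochberg) under 0.05 and it also differs more than 1.5-fold. These are Jak1, Jak2, Stat3, Stat5b, Stat6, Socs1 and Socs3. In Nlrp3-/- mice the same 7 genes were higher and Stat2 was lower, 8 of 9 in all. The subsets differ widely, however, and 53.3% of 9739 tested genes were called in WT mice (26.3% higher and 27.1% lower in G-MDSCs) and 51% of 10071 in Nlrp3-/- mice (23.7% higher and 27.4% lower). The libraries of the subsets did not overlap for 8 of the 9 genes in WT mice, all but Socs3, and for 8 of 9 in Nlrp3-/- mice, all but Stat5a, beside 51.9% and 50.2% of the tested genes. The median log2 fold change of the 9 genes was 1.17 in WT mice, where that of all genes was -0.05, and 1.23 in Nlrp3-/- mice, where it was -0.12. In these bulk libraries fewer cells of a type and less RNA per cell cannot be told apart.

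Jak1, the kinase used by the gp130, interferon and common gamma chain receptors, had the smallest FDR of the 9 genes in both genotypes. In WT M-MDSCs its level was 519, 399, 410 and 454 CPM, and in WT G-MDSCs 1609, 1617, 1184 and 1296 CPM. In Nlrp3-/- mice the M-MDSC libraries read 393, 559, 625 and 506 CPM and the G-MDSC libraries 1452, 1753, 1649 and 1547. Each G-MDSC library thus lay above each M-MDSC library. The log2 fold change of G-MDSCs over M-MDSCs was 1.68 (SE 0.18, FDR = 8.73e-06) in WT and 1.51 (SE 0.16, FDR = 2.47e-06) in Nlrp3-/- mice, that is 3.21-fold and 2.85-fold. Jak2, which serves the receptors of GM-CSF, erythropoietin and related cytokines, ranged from 39.4 to 54.1 CPM over all M-MDSC and from 86.0 to 116 CPM over all G-MDSC libraries. Its log2 fold change was 1.17 (SE 0.16, FDR = 7.72e-05) in WT and 1.02 (SE 0.16, FDR = 0.000134) in Nlrp3-/- mice. For both kinases the order of the 4 groups was G-MDSCs over M-MDSCs, with genotypes overlapping inside each subset.

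**Figure D1:**
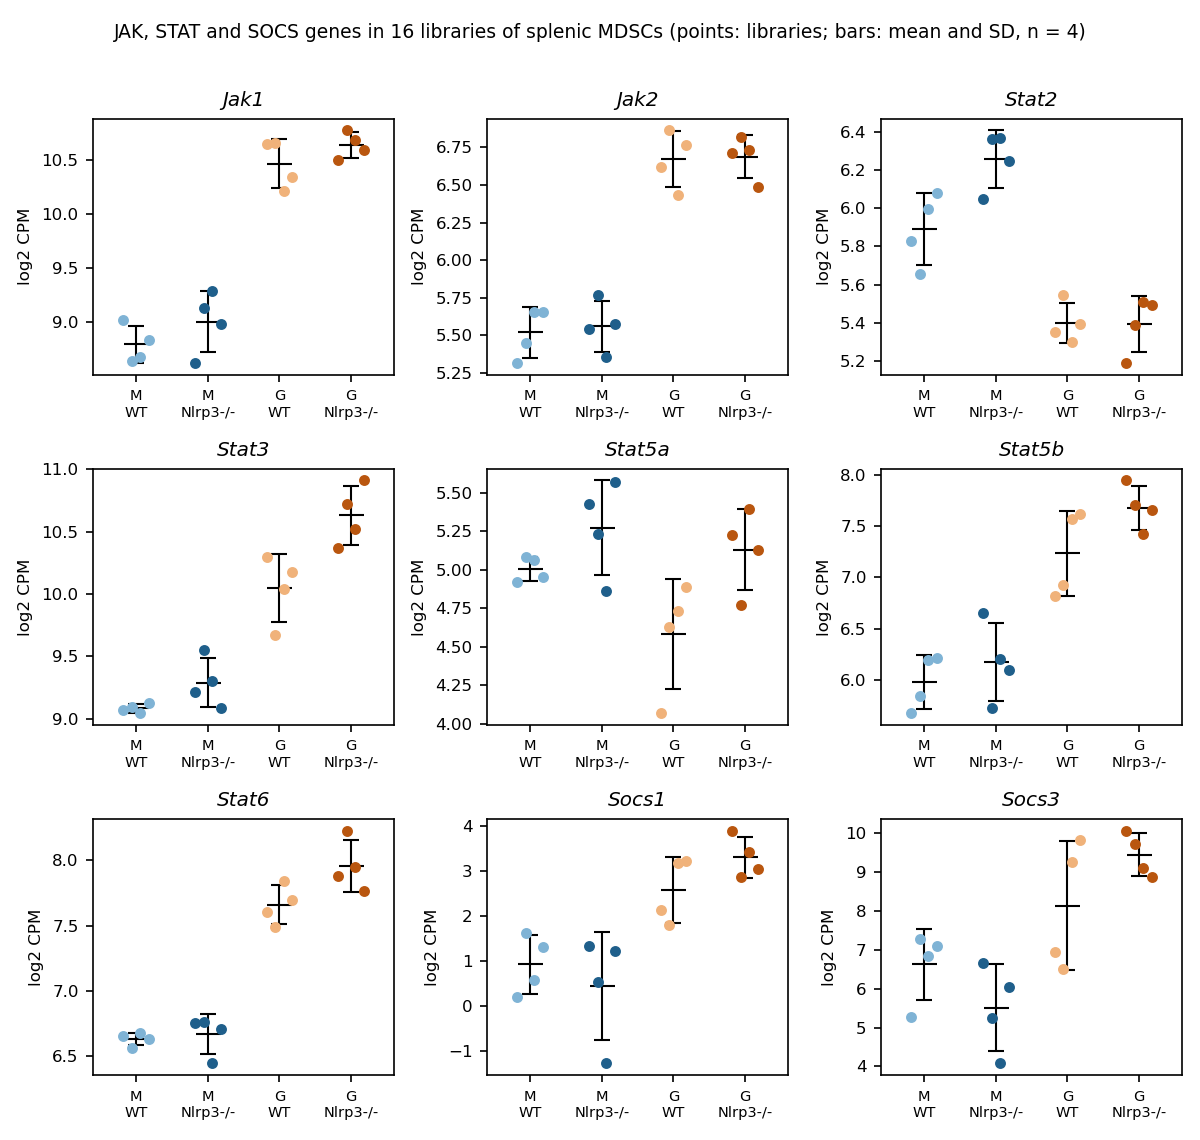
Log2 CPM (prior count of 2) of the 9 genes in 4 groups of 4 libraries each, with every library as a point and bars for the mean and SD. Jak1, Jak2, Stat3, Stat5b, Stat6 and Socs1 lie higher in every G-MDSC than in every M-MDSC library of the same genotype, Stat2 lies lower, and Socs3 spreads widely within groups.

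Stat3, the transcription factor of IL-6 and G-CSF signaling, was higher in G-MDSCs of both genotypes. WT M-MDSCs read 538, 547, 527 and 559 CPM, a spread (SD of log2 CPM) smaller than that of all but 0.533% of 10696 genes. Nlrp3-/- M-MDSCs read 593, 751, 632 and 544 CPM. G-MDSCs read 1259, 813, 1051 and 1158 CPM in WT and 1326, 1685, 1469 and 1926 CPM in Nlrp3-/- mice. The M-MDSC groups overlapped each other, and both G-MDSC groups lay above them and apart from each other. Stat3 was higher in G-MDSCs by a log2 fold change of 0.98 (SE 0.17, FDR = 0.000403) in WT and 1.23 (SE 0.16, FDR = 1.90e-05) in Nlrp3-/- mice.

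Stat5a and Stat5b encode closely related proteins that act downstream of GM-CSF and IL-3, and they lie next to each other and to Stat3 on chromosome 11 of mm10 (Stat5b chr11:100780731-100850724, minus strand; Stat5a chr11:100859351-100885169, plus strand; Stat3 chr11:100885098-100939540, minus strand). The 3′ ends of Stat5a and Stat3 overlap on opposite strands, and the authors counted by strand. No stretch of 31 bases was shared by the last 1000 bases of the longest transcripts of any pair of the 9 genes. The neighbours differed in direction. Stat5b was 63.4 ± 11.5 CPM (SD, n = 4) in WT M-MDSCs and 155 ± 44.1 in WT G-MDSCs, a log2 fold change of 1.29 (SE 0.22, FDR = 0.000332), and 73.5 ± 19.8 against 207 ± 31.1 CPM in Nlrp3-/- mice, a log2 fold change of 1.37 (SE 0.21, FDR = 8.34e-05). Stat5a was 31.7 ± 1.78 CPM in WT M-MDSCs and 24.0 ± 5.48 in WT G-MDSCs. The WT groups did not overlap, but the difference did not pass the test (log2 fold change -0.40, 95% interval -0.84 to 0.04, FDR = 0.109). It was called lower with upper-quartile factors (-0.62, FDR = 0.0197) and with library size only (-1.14, FDR = 0.000551). These scalings move the median of all genes from -0.05 to -0.27 and to -0.79. Relative to that median Stat5a was at -0.35 with library size only. In Nlrp3-/- mice Stat5a was 38.9 ± 7.94 CPM in M-MDSCs and 35.0 ± 6.15 in G-MDSCs, with overlap (log2 fold change -0.27, 95% interval -0.75 to 0.20, FDR = 0.319), and it was called lower with library size only (-0.99, FDR = 0.00202), a scaling that moves the median of all genes to -0.83.

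Stat6, which carries the signal of IL-4 and IL-13, was 98.8 ± 3.28 CPM in WT and 102 ± 10.2 CPM in Nlrp3-/- M-MDSCs. In G-MDSCs it was 203 ± 21.2 CPM in WT and 250 ± 35.4 CPM in Nlrp3-/- mice. The highest of the 8 M-MDSC libraries had 108 CPM and the lowest of the 8 G-MDSC libraries 180 CPM. Log2 fold changes between subsets were 1.04 (SE 0.14, FDR = 5.27e-05) in WT and 1.18 (SE 0.16, FDR = 3.12e-05) in Nlrp3-/- mice.

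Stat2, a transcription factor of the type I interferon response, ran the other way. WT M-MDSCs had 56.5, 49.9, 63.5 and 67.2 CPM and Nlrp3-/- M-MDSCs 65.8, 82.1, 82.3 and 75.7 CPM. G-MDSCs had 40.4, 46.4, 39.0 and 41.6 CPM in WT and 36.0, 41.5, 45.2 and 44.6 CPM in Nlrp3-/- mice. All 8 G-MDSC libraries lay below all 8 M-MDSC libraries, and the G-MDSC groups overlapped each other. In Nlrp3-/- mice Stat2 was lower in G-MDSCs by a log2 fold change of -0.98 (SE 0.16, FDR = 0.000161). In WT mice the log2 fold change was -0.50 (SE 0.16, FDR = 0.0193), under the fold change minimum, and without WT M-MDSC replicate 2, the library with the high neutrophil markers, it was -0.63 (FDR = 0.0107) and past it. It was also past it with upper-quartile factors (-0.72, FDR = 0.00256), with library size only (-1.25, FDR = 4.97e-05) and with at least 10 counts asked of every library (-0.61, FDR = 0.00638). Upper-quartile factors and library size only, however, move the median of all genes from -0.05 to -0.27 and to -0.79. Relative to that median Stat2 was at -0.46 with library size only. Over all alternatives the FDR of Stat2 between WT subsets was 4.97e-05 to 0.0524.

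Socs1 and Socs3 are feedback inhibitors, the former best known for interferon and the latter for gp130 and G-CSF receptors. Socs1 was near the detection floor in M-MDSCs, with 4, 19, 6 and 6 counts in the WT and 18, 6, 0 and 15 counts in the Nlrp3-/- libraries. G-MDSC libraries held 12, 9, 36 and 23 counts in WT and 63, 28, 50 and 30 in Nlrp3-/- mice. In CPM this was 1.64 ± 0.888 against 6.18 ± 3.09 in WT and 1.26 ± 0.963 against 9.92 ± 3.41 in Nlrp3-/- mice. The subsets did not overlap in either genotype, and the log2 fold change was 1.90 (SE 0.51, FDR = 0.00678) in WT and 2.76 (SE 0.64, FDR = 0.00232) in Nlrp3-/- mice. The library without a count allows up to 0.627 CPM.

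Socs3 had the largest SD of log2 CPM of the 9 genes in 3 of the 4 groups (in Nlrp3-/- M-MDSCs it was Socs1). WT M-MDSCs had 38.5, 154, 115 and 137 CPM and Nlrp3-/- M-MDSCs 101, 37.9, 16.5 and 65.8 CPM. WT G-MDSCs had 123, 90.4, 610 and 912 CPM and Nlrp3-/- G-MDSCs 1072, 847, 547 and 469 CPM. WT G-MDSCs thus fell into libraries near the M-MDSC level and libraries several times above it, while all 4 Nlrp3-/- G-MDSC libraries lay above every M-MDSC library. The SD of log2 CPM of Socs3 was larger than that of 96% (WT) and 96.4% (Nlrp3-/-) of 10696 genes in M-MDSCs, and of 99.1% (WT) and 68.2% (Nlrp3-/-) in G-MDSCs. The log2 fold change of G-MDSCs over M-MDSCs was 1.97 (SE 0.65, FDR = 0.0222) in WT and 3.59 (SE 0.46, FDR = 1.56e-05) in Nlrp3-/- mice. The WT call did not hold without M-MDSC WT replicate 1 (1.65, FDR = 0.0525) or without G-MDSC WT replicate 4 (1.32, FDR = 0.0924), and the FDR was 0.00178 to 0.106 over all alternatives. Summed levels of immediate early and stress genes, which rise quickly when cells are handled or stimulated, reached 4631 to 7569 CPM (WT) and 3872 to 5618 CPM (Nlrp3-/-) in the M-MDSC libraries, and 10788 to 20041 CPM (WT) and 20445 to 25899 CPM (Nlrp3-/-) in the G-MDSC libraries. In WT G-MDSC replicates 1 to 4 this sum was 17878, 10788, 15769 and 20041 CPM beside 123, 90.4, 610 and 912 CPM of Socs3. Replicate 2 was lowest and replicate 4 highest in both, while replicate 1 was above replicate 3 in the sum and below it in Socs3. The part of these genes in the Socs3 values was not tested.

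**Figure D2:**
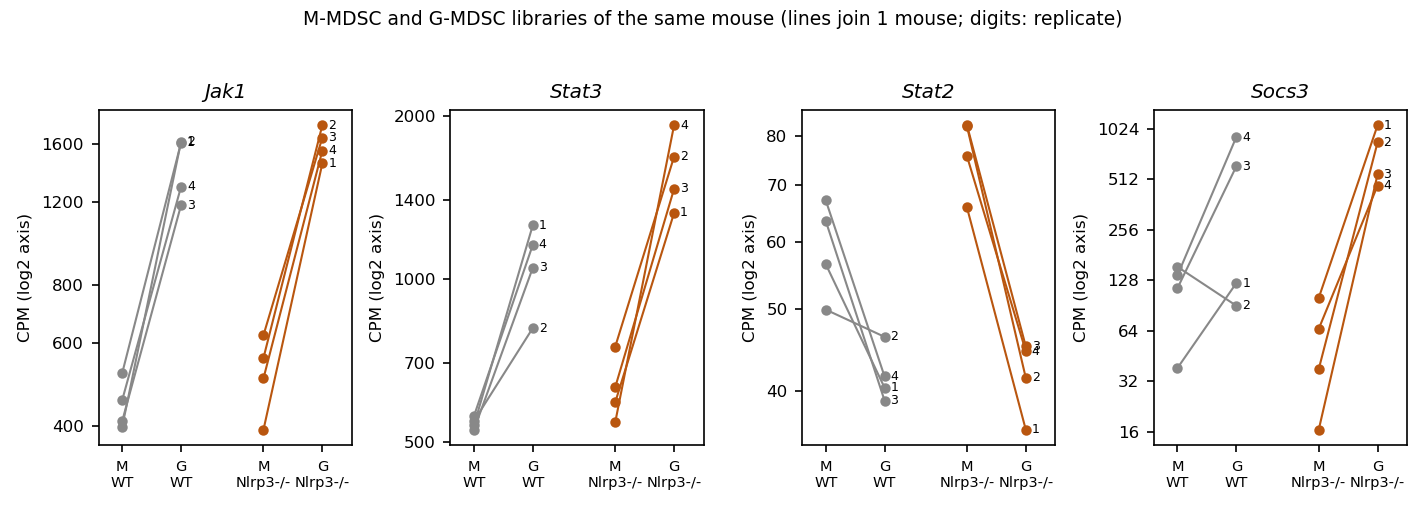
CPM on a log2 axis of Jak1, Stat3, Stat2 and Socs3 in the M-MDSC (M) and G-MDSC (G) library of each mouse, joined by a line, with the replicate number at the G-MDSC end, for 4 WT mice in grey and 4 Nlrp3-/- mice in orange. Jak1 and Stat3 were higher and Stat2 lower in the G-MDSCs of 8 of 8 mice, and Socs3 higher in 7 of 8, the exception being WT mouse 2.

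Since both subsets came from each spleen, the difference could be read mouse by mouse. Jak1, Jak2, Stat3, Stat5b, Stat6 and Socs1 were higher in the G-MDSC library of 8 of 8 mice. Per-mouse log2 differences ran from 1.40 to 2.02 for Jak1, from 0.78 to 1.41 for Jak2, from 0.57 to 1.82 for Stat3, from 1.09 to 1.98 for Stat5b, and from 0.93 to 1.51 for Stat6. Stat2 was higher in G-MDSCs in 0 of 8 mice (-0.98 to -0.11) and Stat5a in 1 of 8 (-0.85 to 0.54). Socs3 was higher in 7 of 8. Among M-MDSC libraries, that of WT mouse 2 had the highest neutrophil marker sum. This mouse had 0.587 times as much Socs3 in its G-MDSCs as in its M-MDSCs. The other WT mice had 3.20-fold, 5.31-fold and 6.65-fold more, and the Nlrp3-/- mice 10.7-fold, 22.4-fold, 33.1-fold and 7.13-fold more. Within the genotype groups every Nlrp3-/- mouse therefore showed a larger Socs3 difference between its subsets than any WT mouse. The interaction term over all 16 libraries, in a fit that does not pair the libraries of a mouse, gave a log2 difference of 1.76 (SE 0.84, 95% interval 0.00 to 3.51, unadjusted p = 0.0498) and did not pass correction over 10696 genes (FDR = 0.992). Its FDR was at least 0.263 in every alternative, that with the mouse as a block among them.

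The promoters of 3 of the 9 genes, Socs3, Socs1 and Stat2, held letters of the type that STATs bind, and the stretches with these matches are printed. Sequences are RefSeq's, on GRCm38.p6, 5′ to 3′ on the strand of the gene, and all 9 genes were matched in windows of 300 bases around the RefSeq start site. The patterns searched were TTCNNNGAA, which reads the same on both strands and is a STAT dimer site of the GAS type, and GAAANNGAAA on either strand, the core of the interferon response element. The former is in 8.47% and the latter in 3.49% of 27025 promoters. Capitals mark the matches, and a match is no proof of binding.
Socs3, chr11:117969466-117969565, minus strand: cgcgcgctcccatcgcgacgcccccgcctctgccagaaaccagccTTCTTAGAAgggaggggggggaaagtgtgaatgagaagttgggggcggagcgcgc
Socs1, chr16:10785565-10785664, minus strand: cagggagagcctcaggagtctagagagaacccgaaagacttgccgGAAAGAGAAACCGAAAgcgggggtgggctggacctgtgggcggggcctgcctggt
Stat2, chr10:128270248-128270347, plus strand: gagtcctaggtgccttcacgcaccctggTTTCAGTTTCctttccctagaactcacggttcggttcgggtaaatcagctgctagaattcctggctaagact
In Socs3 the GAS pattern, TTCTTAGAA, begins 154 bases before the start site. In Socs1 a pair of overlapping matches to the interferon pattern, GAAAGAGAAA and GAAACCGAAA, begin 83 and 77 bases before it. In Stat2 the interferon pattern lies on the opposite strand, as TTTCAGTTTC, and begins 222 bases before the start site. The windows of Jak1, Jak2, Stat3, Stat5a, Stat5b and Stat6 held neither pattern, which says only that these letters are not in these windows.

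In the genotype comparison, the question of the study, none of the 9 genes was called in either subset. In M-MDSCs 0 of 9 were called, against 10.6% of 9986 tested genes (3.51% higher and 7.1% lower in Nlrp3-/- mice; 450 to 1783 genes in place of 1060 when 1 library was left out), and in G-MDSCs 0 of 9, against 16.4% of 9273 (4.7% higher and 11.7% lower). Genotypes did not overlap for 0 of 9 genes in M-MDSCs (background 19.3%) and for 1 of 9, Stat3, in G-MDSCs (24.4%). An unadjusted p under 0.05 was reached by 1 of 9 in M-MDSCs (Stat2, background 30.1%) and by 1 of 9 in G-MDSCs (Stat3, background 32.3%). DESeq2's test likewise called 0 of 9 in each subset. Log2 fold changes were positive in 7 of 9 genes in each subset, where 55% and 51.9% of all genes were positive. Their median was 0.24 in M-MDSCs and 0.33 in G-MDSCs, beside 0.07 and 0.03 over all genes.

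Stat3 and Stat2, which had the smallest p in G-MDSCs and M-MDSCs, and Socs3 are given in full. In G-MDSCs Stat3 was 1070 ± 191 CPM in WT and 1601 ± 262 in Nlrp3-/- mice, a log2 fold change of 0.50 (SE 0.18, 95% interval 0.12 to 0.87, FDR = 0.0633). All 4 Nlrp3-/- libraries lay above all 4 WT libraries, as they did for 12% of tested genes. This separation alone fixes the exact permutation test at p = 0.0286, the smallest that 4 against 4 allow. Stat3 was past the call when libraries were scaled by their size only (0.61, FDR = 0.0261, or 0.45 relative to the median of all genes, which that scaling moves from 0.03 to 0.16) or corrected for GC content and transcript length (0.60, FDR = 0.0402), with an FDR of 0.0197 to 0.173 over all alternatives. In M-MDSCs Stat3 was 543 ± 13.6 and 630 ± 88.2 CPM, with a log2 fold change of 0.24 (SE 0.15, FDR = 0.290). The effects of genotype on Stat3 in the subsets differed by 0.37 (SE 0.24, 95% interval -0.13 to 0.86, FDR = 0.992).

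In M-MDSCs Stat2 was 59.3 ± 7.65 CPM in WT and 76.5 ± 7.72 in Nlrp3-/- mice, with overlap (0.39 on the log2 scale, SE 0.15, FDR = 0.104), and 41.9 ± 3.19 against 41.8 ± 4.18 CPM in G-MDSCs, a log2 fold change of -0.09 (SE 0.18, FDR = 0.772). Socs3 lay in opposite directions in the subsets. In M-MDSCs it was 111 ± 51.0 CPM in WT and 55.2 ± 36.3 in Nlrp3-/- mice (log2 fold change -0.95, 95% interval -2.04 to 0.14, FDR = 0.222), and in G-MDSCs 434 ± 398 and 734 ± 278 CPM (0.67, 95% interval -0.52 to 1.86, FDR = 0.435). Groups overlapped in both. Without M-MDSC Nlrp3-/- replicate 1, the highest of its group at 101 CPM, Socs3 was called lower in Nlrp3-/- M-MDSCs (-1.48, FDR = 0.0431), and the FDR was 0.0431 to 0.452 over all alternatives.

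The other 6 genes had log2 fold changes between -0.25 (Socs1) and 0.33 (Stat5a) in M-MDSCs, with FDR from 0.267 to 0.852. In G-MDSCs they ranged from -0.07 (Jak2) to 0.59 (Socs1), with FDR from 0.194 to 0.792. For Jak1 the 95% interval was -0.11 to 0.60 in M-MDSCs and -0.26 to 0.42 in G-MDSCs, and for Jak2 it was -0.28 to 0.42 and -0.42 to 0.28, so that for these kinases a change as large as that between the subsets lies outside the interval. For Socs1 the intervals of -1.79 to 1.29 and -0.31 to 1.49 leave large changes undetectable at this depth. Of the interaction terms none of the 9 passed an FDR of 0.05, as did 0.028% of 10696 genes (3 genes), and 1 of 9, Socs3, had an unadjusted p under 0.05 (background 4.49%).

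**Figure D3:**
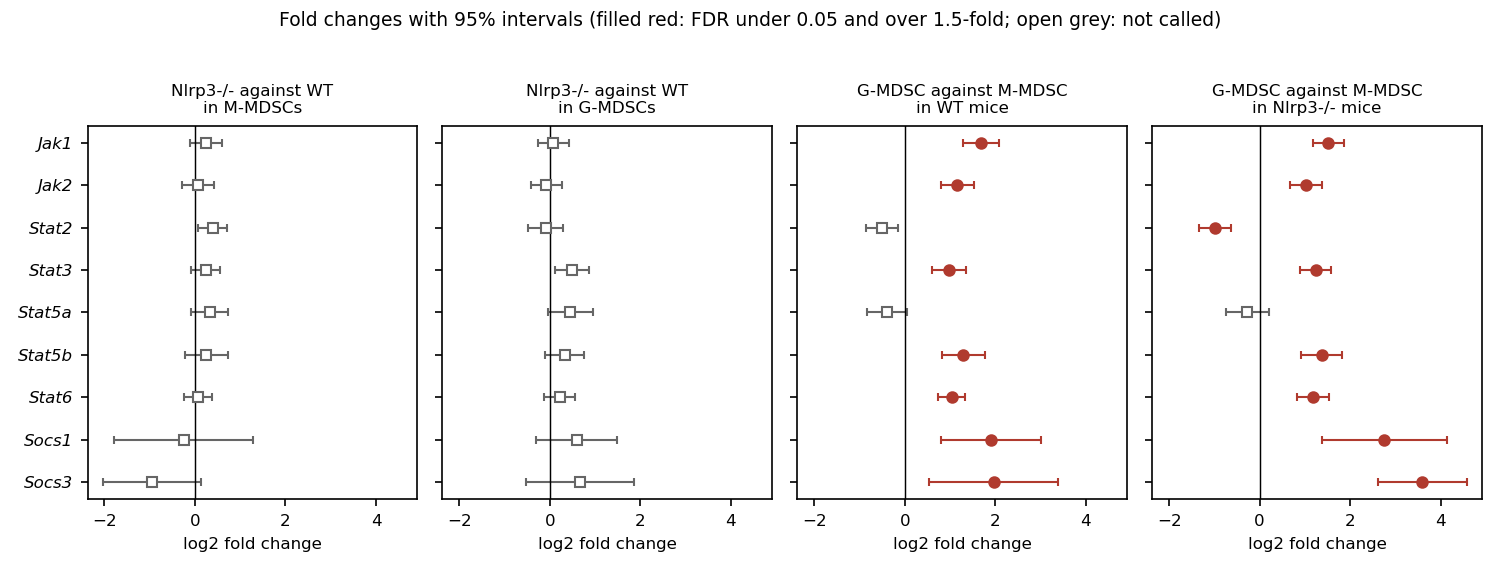
Log2 fold changes with 95% intervals of the 9 genes in the 2 genotype comparisons (Nlrp3-/- over WT) and the 2 subset comparisons (G-MDSC over M-MDSC), each over 4 against 4 libraries, filled red where called. No gene is called between genotypes, 7 are called between subsets in WT and 8 in Nlrp3-/- mice, and the intervals of Socs1 and Socs3 are the widest.

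Further genes of the pathway were read from lists. Of 9 further family genes, 0 of 9 tested were called by genotype in M-MDSCs and 0 of 8 in G-MDSCs. Between subsets 1 was higher and 2 lower in G-MDSCs in both genotypes. In WT mice Stat4, the STAT of IL-12, was higher (log2 fold change 2.36), and the kinase Tyk2 (-2.05) and Socs6 (-2.29) were lower.

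Among 16 other regulators, such as phosphatases and ubiquitin ligases, 3 were lower and 1 higher in Nlrp3-/- M-MDSCs, and 4 lower and 1 higher in Nlrp3-/- G-MDSCs. The 3 with the smallest p were the same in both subsets. Cbl, a ubiquitin ligase for receptors and kinases, had a log2 fold change of -1.02 (SE 0.17, FDR = 0.00477) in M-MDSCs and -1.21 (SE 0.17, FDR = 0.000274) in G-MDSCs. Ptprc, the phosphatase CD45, had -0.97 (SE 0.19, FDR = 0.00860) and -1.20 (SE 0.15, FDR = 0.000149), and Ptpn11, the phosphatase SHP-2, -0.88 (SE 0.18, FDR = 0.0103) and -0.93 (SE 0.21, FDR = 0.00788). Corrected for GC content and transcript length, Cbl (-0.60, FDR = 0.062) and Ptprc (-0.57, FDR = 0.104) were not called in M-MDSCs. In G-MDSCs they were still called, at -0.67 and -0.65, and Ptpn11 was still called in both subsets (-0.71 and -0.67). The median of the list was -0.06 in M-MDSCs and 0.14 in G-MDSCs, beside 0.07 and 0.03 over all genes. Between subsets 5 were higher and 1 lower in G-MDSCs of WT mice, and 8 and 1 in Nlrp3-/- mice.

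Upstream, 5 of 10 receptor genes of the gp130 and G-CSF type passed the filter. In Nlrp3-/- G-MDSCs, 1 of 5 was lower, Il6ra, the binding chain of the IL-6 receptor (-0.94, SE 0.19, FDR = 0.00341), and in M-MDSCs 0 of 5 were called. Between subsets Csf3r, the G-CSF receptor, a neutrophil marker too, was higher in G-MDSCs in WT mice (5.19), whereas Il6st, which encodes gp130, and Lifr were lower (-2.48 and -2.47). In the beta common and gamma common receptor list 2 of 12 were higher in Nlrp3-/- M-MDSCs, Csf2ra, the GM-CSF receptor (0.68, SE 0.19, FDR = 0.0396), and Crlf2, the receptor of TSLP. In G-MDSCs Crlf2 was higher (0.68, SE 0.17, FDR = 0.0121) and Il7r lower (-1.17, SE 0.27, FDR = 0.00924), 1 and 1 of 12. Between subsets 7 were higher and 2 lower of 12 in G-MDSCs of WT mice, and 5 and 2 of 11 in Nlrp3-/- mice. Of the receptors of interferons and the IL-10 family, 0 of 7 were called by genotype in M-MDSCs and 0 of 8 in G-MDSCs, and 3 were higher and 1 lower between subsets in WT mice and 2 and 2 in Nlrp3-/- mice. Of 19 cytokine genes 15 did not pass the filter in the genotype comparisons. Ebi3, a subunit of IL-27, was higher in Nlrp3-/- M-MDSCs (0.61, SE 0.17, FDR = 0.0401), 1 of 4 tested, and 0 of 4 were called in G-MDSCs. All 3 tested in WT mice, and 3 of 4 in Nlrp3-/- mice, were higher in G-MDSCs, among them Osm, a gp130 cytokine (2.05 in WT and 2.49 in Nlrp3-/- mice).

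**Figure D4:**
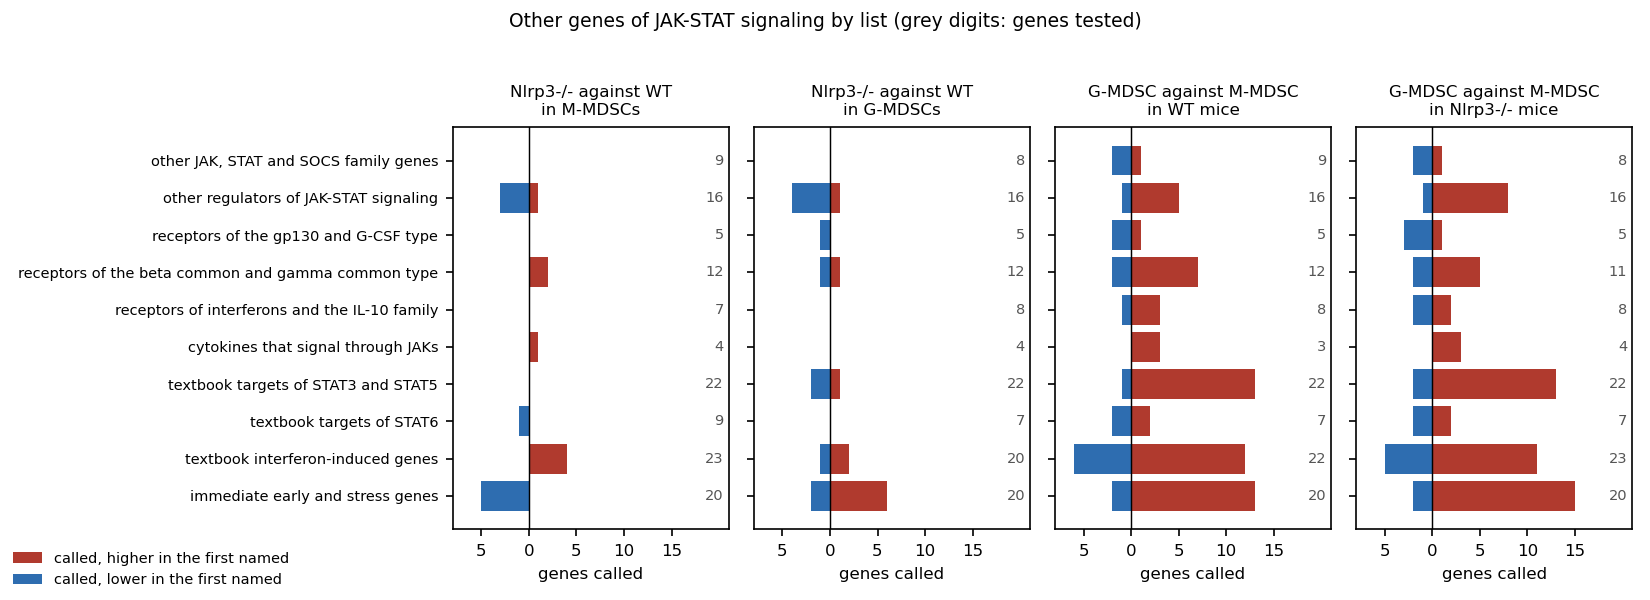
Number of genes called higher (red, right of 0) or lower (blue, left of 0) in the first named group in 10 lists of other JAK-STAT pathway and stress genes, with the number tested in grey, for the 2 genotype and the 2 subset comparisons. Textbook targets of STAT3 and STAT5 had 0 genes called by genotype in M-MDSCs and 3 in G-MDSCs, but 13 higher in G-MDSCs than in M-MDSCs in each genotype. That list holds S100a8 and S100a9, which are neutrophil markers too.

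Downstream, 22 textbook targets of STAT3 and STAT5 were tested. None was called by genotype in M-MDSCs (median -0.06, all genes 0.07). In G-MDSCs 1 was higher, Junb (2011 ± 682 in WT against 3490 ± 549 CPM, 0.71, SE 0.23, FDR = 0.0450), which is also on the immediate early list, and 2 were lower, Hif1a (-0.66, FDR = 0.0170) and Vegfa (-0.66, FDR = 0.0342). Between subsets 13 were higher and 1 lower in G-MDSCs of WT mice (median 1.21), and 13 and 2 in Nlrp3-/- mice (median 1.04). S100a8 and S100a9, on this list, are neutrophil markers too, so these counts partly read the sorted cell type. Pim1, a kinase gene induced by STAT3 and STAT5, was among those higher (1.08 in WT, 1.47 in Nlrp3-/- mice), and Cish, a SOCS family target of STAT5, was not called (0.80, FDR = 0.199 and 0.76, FDR = 0.159). Of the STAT6 targets 1 of 9 was lower in Nlrp3-/- M-MDSCs, Klf4 (-0.85, SE 0.17, FDR = 0.0105), 0 of 7 were called in G-MDSCs, and 2 were higher and 2 lower between subsets in each genotype.

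Of 23 textbook interferon-induced genes, 4 were higher and 0 lower in Nlrp3-/- M-MDSCs. These were Ifit3, which is induced by interferon (26.8 ± 2.72 in WT against 64.0 ± 4.89 CPM, log2 fold change 1.28, SE 0.15, FDR = 0.00137), Ifi47 (0.88, FDR = 0.0106), Irf7 (0.70, FDR = 0.0231) and Irf1 (0.70, FDR = 0.0279). In G-MDSCs 2 of 20 were higher, Ifit3 (1.34, SE 0.28, FDR = 0.00494) and Irf7 (0.80, FDR = 0.00525), and 1 lower, Ifit2 (-1.21, FDR = 0.0235). The median was 0.47 in M-MDSCs and 0.27 in G-MDSCs. Between subsets 12 were higher and 6 lower of 22 in G-MDSCs of WT mice, and 11 and 5 of 23 in Nlrp3-/- mice. Among 20 immediate early and stress genes 0 were higher and 5 lower in Nlrp3-/- M-MDSCs, led by Klf6 (-1.48, FDR = 0.00413) and by Hspa1a and Hspa1b (-3.59 and -3.88), near-identical copies whose reads cannot be assigned with certainty. In Nlrp3-/- G-MDSCs 6 were higher and 2 lower, among them Ier2 (0.91, FDR = 0.00390), Egr2 (1.99, FDR = 0.00409) and Klf6 (-0.92, FDR = 0.00793). Between subsets 13 were higher and 2 lower in WT and 15 and 2 in Nlrp3-/- mice. The share of called genes in these lists is to be read beside the 10.6%, 16.4%, 53.3% and 51% of all genes called in the 4 comparisons. Many of these list calls are near the threshold. Of the 17 list genes called by genotype in M-MDSCs, 10 were called whichever library was left out, the exceptions being Crlf2, Csf2ra, Ebi3, Fosb, Irf1, Irf7 and Pias3. In G-MDSCs it was 11 of 21, all but Btg2, Crlf2, Dusp1, Hif1a, Ifit2, Junb, Jund, Pias3, Ptpn2 and Vegfa. The correction for GC content and transcript length kept 9 of the 17 calls in M-MDSCs and 10 of the 21 in G-MDSCs. Lost in M-MDSCs were Cbl, Crlf2, Csf2ra, Ebi3, Irf1, Irf7, Pias3 and Ptprc. Of the interferon-induced genes called there, Ifit3 and Ifi47 were kept. Lost in G-MDSCs were Crlf2, Dusp1, Dusp2, Hif1a, Ier2, Ifit2, Il7r, Junb, Klf6, Pias3 and Ptpn2.

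The genes whose log2 CPM followed each member most closely over the 16 libraries were Iqsec1 and Slc16a3 for Jak1 (Pearson r 0.99 for both), Rnd1 and Hdac4 for Jak2 (0.98 for both), and Tmem160 and Snx30 for Stat2 (0.95 for both). For Stat3 they were Ip6k1 and Tnni2 (0.98 for both), for Stat5b 1810013L24Rik and Fas (0.98 for both), and for Stat6 Git2 and Sbno2 (0.99 and 0.98). Stat5a had no close match, Slc41a3 and Med11 reaching 0.85. Rab32 was on the list of both inhibitors, with r = 0.98 for Socs3 (next to Rassf2, 0.98) and 0.96 for Socs1 (next to Rffl, 0.96). These values are a description over libraries that share mice and subsets. Against the group means, r was 0.91 for Jak1 with Iqsec1 and 0.96 for Socs3 with Rassf2. The other genes named here were not among the closest to their member on that scale. There the closest were, for example, Ly9 for Jak2 (0.88), Tmem106c for Stat3 (0.89) and Supt4a for Stat6 (0.90).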

How the data were processed

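Gene counts of 16 libraries were analysed. The authors mapped the QuantSeq 3′ reads to mm10 with HISAT2 2.1.0, counted them on genes by strand with htseq-count, and deposited raw counts of 24421 symbols per library, without normalization. Reads were amplified with cycle numbers that are not given per library, and molecular tags were not used here. Their scaling and tests with edgeR 3.14.0 were not used.

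Counts were fitted in R 4.3.3 with edgeR 4.0.16 (filterByExpr, TMM, quasi-likelihood test), comparing genotypes within each subset and subsets within each genotype over 8 libraries, and their interaction over 16. A gene was called at a Benjamini-Hochberg FDR under 0.05 over all tested genes and a fold change above 1.5, with FDR alone for the interaction. Printed CPM and log2 CPM (prior count of 2) are on 1 TMM scale over 16 libraries and 10696 genes, while fold changes come from each fit. The SE is the log2 fold change divided by the root of F. Exact permutation tests were two-sided. The code was tested on simulated data.

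The members, lists and tests were chosen with earlier results of these data known. All 9 members are named in every comparison, from each list the up to 3 called genes with the smallest p in the genotype comparisons, and for each member the 2 genes most correlated with it. A gene of these lists is not reported here and is left out of their counts. Other list genes, those between subsets among them, were named after their values were seen. Loci and transcripts come from GENCODE M21 (mm10), where 23376 symbols matched directly and 670 by an older symbol.

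M-MDSC and G-MDSC libraries of 1 mouse pair by the labels (correlation of deviations from group means 0.00821 to 0.397 over 8 mice). WT and Nlrp3-/- libraries of 1 number come from different mice (-0.452 to 0.0177). No library in 24 within-group pairs duplicated another (chi-square per degree of freedom 6.76 to 50.6). DESeq2 1.42.0, other scalings, filters and samples were tried as alternatives.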

Additional observations from a re-analysis of the deposited data

Results flagged for a closer look

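Of 36 sets of 4 libraries, 1 for each gene and group, 1 held a library far from the other 3 by Dixon's test at the 95% level. Stat6 in M-MDSC Nlrp3-/- replicate 3 was 86.67 CPM, where the other 3 libraries of the group had 104 to 108 CPM, and its gap was 0.831 of the group's range. About 1 in 20 such sets is marked by chance.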

How the results depend on the processing

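Under the alternatives run, the number of the 9 genes called moved by over 1.5 times in these cases. By genotype in M-MDSCs it was 0 to 1 over the fits that left out 1 library (1, Socs3, without M-MDSC Nlrp3-/- replicate 1). By genotype in G-MDSCs it was 1 (Stat3) with library size only and 1 with the GC and length correction. Between subsets in WT mice it was 3 with library size only (1 higher and 2 lower, against 7 and 0). Within 1.5 times, it was 9 with upper-quartile factors (7 and 2) and 6 to 8 leaving out a library in WT mice, and 6 with library size only in Nlrp3-/- mice. Upper-quartile factors moved the median of all genes in WT mice from -0.05 to -0.27. Library size only moved it from -0.05 to -0.79 in WT and from -0.12 to -0.83 in Nlrp3-/- mice. Relative to that median the 7 genes higher in G-MDSCs lay at 1.03 (Stat3) to 2.05 (Socs3) in WT and 1.13 (Jak2) to 3.70 (Socs3) in Nlrp3-/- mice.

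Genes under no call that changed sign were Stat6 by genotype in M-MDSCs (-0.052 with the GC and length correction, -0.060 with it and the replicate block, -0.0081 to 0.15 leaving out a library), Jak2 by genotype in G-MDSCs (0.056 with library size only, 0.33 with the GC and length correction, 0.34 with it and the replicate block, 0.013 in the model of all 16 libraries, -0.13 to 0.0045 leaving out a library), Stat2 by genotype in G-MDSCs (0.038 with library size only; relative to the median of all genes, 0.16 there, Stat2 was at -0.12 and Jak2 at -0.10), and, leaving out a library, Socs1 (-0.64 to 0.19) and Jak2 (-0.049 to 0.15) in M-MDSCs and the interaction terms of Jak1 (-0.34 to 0.040) and Jak2 (-0.21 to 0.041). The causes were not tested.

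The replicate block left 0 of 9 genes called in M-MDSCs, 0 in G-MDSCs, 7 between subsets in WT, 8 in Nlrp3-/- mice and 0 interactions. Of the list genes called by genotype it kept 10 of 17 in M-MDSCs and 14 of 21 in G-MDSCs (lost were Crlf2, Csf2ra, Ebi3, Fosb, Irf1, Irf7 and Pias3, and Btg2, Dusp1, Hif1a, Junb, Jund, Pias3 and Vegfa), and with the GC and length correction 4 and 3. Over all genes it took the calls by genotype from 1060 to 425 in M-MDSCs and from 1522 to 985 in G-MDSCs, where the numbers do not mark the same mouse. The GC and length correction took them to 668 and 965, and with the block to 48 and 396. Without the block it kept 9 of 17 list genes in M-MDSCs and 10 of 21 in G-MDSCs. Leaving out a library moved the count in M-MDSCs by over 1.5 times without Nlrp3-/- replicate 1 (1783), 3 (702) or 4 (450) or WT replicate 2 (514), 3 (669) or 4 (473), and gave 1104 to 1544 in G-MDSCs. Depth limits Socs1 most, with 0 to 63 counts per library.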

Other observations

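Once each library was set against the mean of its group, the inhibitors and the kinase Jak1 lay on opposite sides. Over the 16 libraries the deviations of Socs3 correlated with those of Socs1 at Pearson r = 0.85, with Stat5b at 0.75 and with Jak1 at -0.84, and those of Socs1 with Jak1 at -0.81. Stat3 was at 0.01 with Socs3. Genes outside the pathway followed Socs3 more closely than Socs1 did, such as Gm7694, Rps16 and Arpc1a (0.96 each), so the relation is not particular to these genes. These pairs were chosen after their values were seen, the libraries share mice, and Socs1 has few counts, so the values are a description without a test.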
